A study of Mus musculus with 30 samples.

Results

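The 10 genes described here act in insulin signalling and glucose uptake. Their levels were followed in gonadal white adipose tissue (gWAT) of mice that were obese, had been obese or had stayed lean. The genes were Insr, Irs1, Irs2, Pik3r1, Akt2, Foxo1, Pde3b, Grb14, Slc2a4 and Slc2a1. They were chosen by name for their place in the pathway, with earlier results of these data known. Each was read from 1 microarray probe set annotated to that gene alone, the one with the highest mean over all 30 arrays. All 10 were measured, among 22180 genes with such a probe set.

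The mice were wild type C57BL6/J males, 35 weeks old, with 6 mice in each of 5 groups and 1 array per mouse. Obese mice ate a high-fat diet (HFD, 58% of energy from fat) for 27 weeks. Formerly obese mice ate HFD for 20 weeks and then control diet (10.5% of energy from fat) for 7 weeks, and formerly obese-HFD mice had the same history followed by 48 h of HFD. Lean-HFD mice ate control diet for 27 weeks and then HFD for 48 h, and lean mice ate control diet throughout. The obese mice differed from the lean mice in both diet at sampling and body fat, so these cannot be told apart in that pair.

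Insulin binds its receptor on the adipocyte, and the receptor phosphorylates IRS adaptor proteins, which recruit PI 3-kinase. The lipid made by this kinase activates Akt, which sends vesicles with the glucose transporter GLUT4 to the cell surface, keeps FoxO transcription factors out of the nucleus and acts on phosphodiesterase 3B, which lowers cAMP and restrains lipolysis. Adipose tissue is known for its low GLUT4 in obesity and insulin resistance.

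Insulin also acts back on its own adaptors, because FoxO factors bind insulin response elements in target genes, Irs2 being a textbook case in liver. RefSeq (GRCm38.p6) gave start-site windows, 250 bases before to 50 bases after the start, for 7 of the 10 genes, 11 windows in all. Both strands were searched for the insulin response element core CAAAACA, which reads TGTTTTG on the opposite strand, and for the FoxO core GTAAACA, also on either strand. The insulin response element core stood in 2 of the 11 windows, those of Irs1 and Irs2, against 6.28% of all 32851 windows of that length, and the FoxO core in 0 of the 11, against 3.65% of all windows. The stretches before the start of these adaptor genes are shown because they hold a match, with the matches in capitals. Both genes fell in obese mice, as did Pik3r1, whose windows held neither core.
Irs1, chr1:82291440-82291689, minus strand: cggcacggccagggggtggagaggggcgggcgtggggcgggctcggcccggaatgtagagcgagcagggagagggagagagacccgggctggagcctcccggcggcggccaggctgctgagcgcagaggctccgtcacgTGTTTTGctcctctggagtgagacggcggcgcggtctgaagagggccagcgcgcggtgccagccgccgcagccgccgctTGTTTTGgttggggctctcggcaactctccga
Irs2, chr8:11008930-11009179, minus strand: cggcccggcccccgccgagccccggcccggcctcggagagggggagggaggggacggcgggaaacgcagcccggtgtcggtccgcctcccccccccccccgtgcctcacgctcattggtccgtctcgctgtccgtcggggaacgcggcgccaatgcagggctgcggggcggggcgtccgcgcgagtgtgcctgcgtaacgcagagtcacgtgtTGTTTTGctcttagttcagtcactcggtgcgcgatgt
The matches begin 111 and 32 bases before the start of Irs1, and 37 bases before the start of Irs2. A match of these letters is a description and not a binding site.

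The arrays were alike in scale, with medians from 4.85 to 4.97 on the log2 scale and correlations between arrays from 0.953 to 0.984, and no pair of arrays was identical. Markers of the labelled tissue were high on every array: the mean of 8 mature adipocyte markers lay between 10.66 and 11.32 log2 on all arrays. The mean of 10 hepatocyte markers ranged from 5.99 to 10.56 in lean-HFD mice and from 5.17 to 8.85 in lean mice, so RNA of that kind differed between arrays of the same group.

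**Figure D1:**
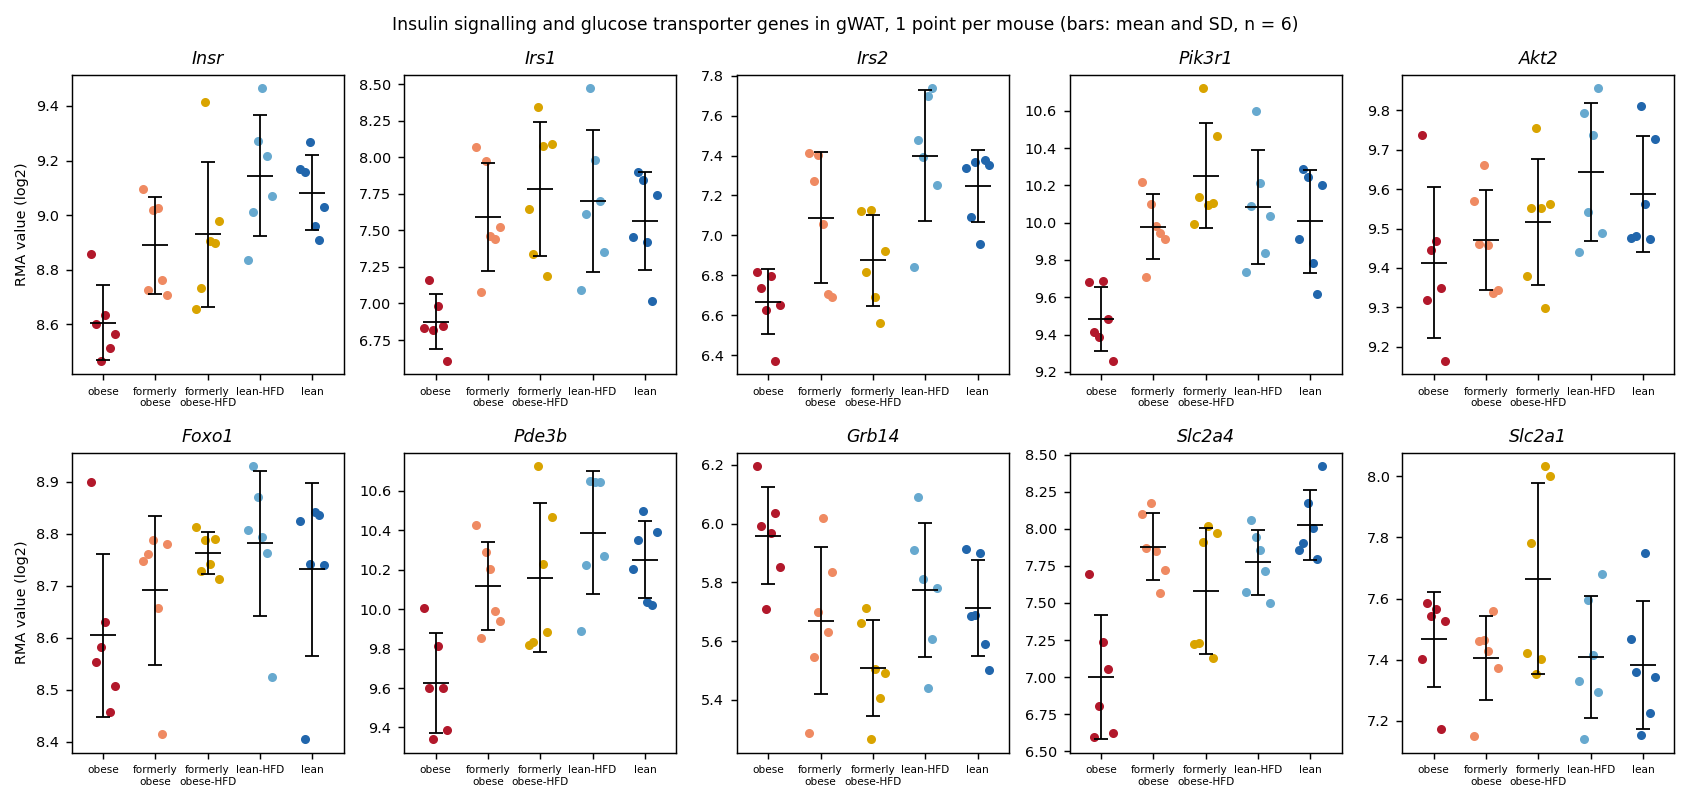
RMA values (log2, vertical axis) of the 10 genes in the 5 groups (horizontal axis), 1 point per mouse, with the mean and SD of 6 mice as black bars. Obese mice lie below all lean mice for Insr, Irs2, Pde3b and Slc2a4, and the 5 groups overlap for Akt2, Foxo1 and Slc2a1.

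The first question was how a long HFD altered the pathway. In obese mice 6 of the 10 genes fell, at both ends and in the middle of the pathway: the receptor Insr, the adaptors Irs1 and Irs2, the PI 3-kinase subunit Pik3r1, the phosphodiesterase Pde3b and the transporter Slc2a4. None rose. A gene was called, and is said to have risen or fallen, when limma gave an adjusted p under 0.10, the fold was over 1.3 and the level was over 16 on the linear scale in at least 1 group. Among all 41345 probe sets 6.04% were called and 2.11% were called lower. The median difference of the 10 genes was -0.50 log2, against -0.02 over all genes.

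Insr encodes the insulin receptor itself. Its lowest, median and highest values were 8.47, 8.58 and 8.86 log2 in obese mice, against 8.91, 9.09 and 9.27 in lean mice. Every obese mouse lay below every lean mouse, as for Irs2, Pde3b and Slc2a4, while 1.55% of all probe sets were lower with ranges apart. The difference was -0.48 ± 0.09 log2 (SE of the limma fit, adjusted p = 0.00621), which is 1.39-fold lower in obese mice.

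The adaptors that the receptor phosphorylates fell as well. Irs1, the adaptor most tied to insulin action in adipocytes, had 6.61, 6.84 and 7.16 log2 (lowest, median, highest) in obese mice, against 7.02, 7.60 and 7.90 in lean mice. Of the 6 obese mice 5 lay below all lean mice, and the ranges met only at the highest obese mouse. Irs1 differed by -0.69 ± 0.15 log2 (adjusted p = 0.0143). A second probe set of Irs1 gave -0.88 ± 0.18 log2 (adjusted p = 0.0103), with the ranges apart.

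Irs2, the adaptor that insulin represses through FoxO in liver, had 6.37, 6.69 and 6.82 log2 in obese mice, against 6.96, 7.35 and 7.38 in lean mice. The groups did not overlap. The fall was -0.58 ± 0.10 log2 (adjusted p = 0.00479). A probe set annotated to both Irs2 and 9530052E02Rik, with a low mean of 4.96 log2 over all arrays, went the other way at 0.15 log2 (adjusted p = 0.417).

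Pik3r1 encodes the regulatory subunit that docks PI 3-kinase to the adaptors. Its values were 9.26, 9.45 and 9.69 log2 in obese mice, against 9.62, 10.06 and 10.29 in lean mice. Of the 6 obese mice 4 lay below all lean mice. The difference was -0.52 ± 0.13 log2 (adjusted p = 0.0296), and with the hepatocyte marker mean as a covariate it was -0.54 log2, as large but no longer called (adjusted p = 0.131).

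Downstream of PI 3-kinase the levels of the kinase and the transcription factor did not pass the test. Akt2, the Akt isoform that drives GLUT4 to the surface, averaged 9.41 ± 0.19 log2 in obese mice and 9.59 ± 0.15 in lean mice (SD, n = 6 each). Of the 6 obese mice 5 lay below all lean mice and the last stood inside the lean range. The difference was -0.17 log2 (95% confidence interval -0.39 to 0.04, adjusted p = 0.407). Foxo1, the factor that Akt excludes from the nucleus, averaged 8.60 ± 0.16 log2 in obese mice and 8.73 ± 0.17 in lean mice (SD, n = 6 each). That difference was -0.13 log2 (95% confidence interval -0.34 to 0.08, adjusted p = 0.557), and a second probe set of Foxo1 gave 0.06 log2.

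Pde3b, the enzyme through which insulin lowers cAMP in adipocytes, fell. It had 9.34, 9.60 and 10.01 log2 (lowest, median, highest) in obese mice, against 10.02, 10.28 and 10.50 in lean mice. The highest obese mouse stood just below the lowest lean mouse. The fall of Pde3b was -0.63 ± 0.13 log2 (adjusted p = 0.0105), which is 1.54-fold lower in obese mice.

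Grb14, an inhibitor that binds the active receptor, was the only signalling gene with a higher mean in obese mice. It had 5.71, 5.98 and 6.195 log2 in obese mice, against 5.50, 5.69 and 5.91 in lean mice. Of the 6 obese mice 4 lay above all lean mice, and the ranges overlapped. The difference of 0.25 ± 0.10 log2 did not pass (adjusted p = 0.193).

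The transporters parted. Slc2a4, which encodes the insulin-responsive transporter GLUT4, had 6.60, 6.93 and 7.69 log2 in obese mice, against 7.80, 7.95 and 8.42 in lean mice, with no overlap. It differed by -1.02 ± 0.18 log2 (adjusted p = 0.00519), 2.03-fold lower in obese mice and the furthest shift among the 10 genes in this pair. Slc2a1, which encodes the basal transporter GLUT1, averaged 7.47 ± 0.16 log2 in obese mice and 7.38 ± 0.21 in lean mice (SD, n = 6 each). Its difference was 0.08 log2 (95% confidence interval -0.15 to 0.32, adjusted p = 0.76).

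In whole tissue, fewer cells of a type and less RNA per cell cannot be told apart. All 8 mature adipocyte markers were lower in obese mice and 2 of them fell, the marker mean lying between 10.72 and 11.06 log2 in obese mice and between 11.06 and 11.26 in lean mice. All 10 macrophage markers were higher in obese mice and 7 of them rose, the mean lying between 9.01 and 9.97 log2 in obese mice and between 7.94 and 8.35 in lean mice, with no overlap. All 8 mesothelial markers were lower in obese mice and 2 of them fell. Their mean lay between 6.03 and 7.01 log2 in obese mice and between 6.81 and 7.53 in lean mice. All 10 hepatocyte markers were lower in obese mice and 1 fell. Of 7 preadipocyte and fibroblast markers 3 rose and 1 fell. With every array scaled to its adipocyte marker mean, the median of all genes moved to 0.24 log2. Slc2a4 and Irs1 were then still called lower, and Grb14 was called higher (0.51 log2, adjusted p = 0.00472). Over all probe sets 7348 were called higher and 273 lower with this scaling, against 1623 higher and 873 lower as deposited. A higher call like that of Grb14 was therefore common under this scaling, and a lower call was rare. Insr, Irs2, Pik3r1 and Pde3b were no longer called. Pde3b (-0.36 log2, adjusted p = 0.0187), Irs2 (-0.32, adjusted p = 0.0303) and Insr (-0.21, adjusted p = 0.0722) missed only the 1.3-fold limit. Pik3r1 missed both limits (-0.26 log2, adjusted p = 0.105). With the macrophage marker mean as a covariate, 0 of the 10 genes and 0 probe sets were called, with adjusted p from 0.931 to 0.995 for the 6. The fitted differences were -0.64 log2 for Irs2, -0.40 for Irs1 and -0.15 for Insr, and turned positive for Pik3r1 (0.10), Pde3b (0.11) and Slc2a4 (0.18). Since the macrophage means of obese and lean mice do not overlap, that covariate and obesity cannot be told apart here.

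**Figure D2:**
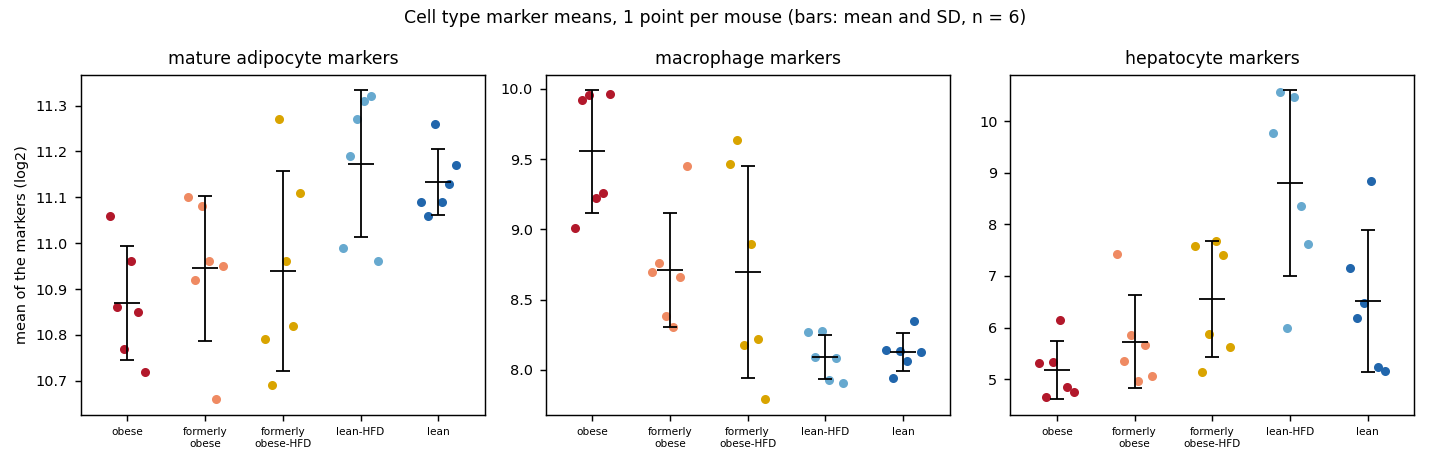
Mean log2 value of 8 mature adipocyte, 10 macrophage and 10 hepatocyte markers (vertical axes) in the 5 groups (horizontal axis), 1 point per mouse, with the mean and SD of 6 mice as black bars. Macrophage means of obese mice (9.01 to 9.97) lie above those of all lean and lean-HFD mice, and hepatocyte means spread most in lean-HFD mice (5.99 to 10.56).

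The same mice tended to stand at the edges for many of the genes. One obese mouse (replicate 1) was the highest of its group for 7 of the 10 genes, and it had the lowest macrophage mean (9.01 log2) and the highest adipocyte mean (11.06 log2) of the obese mice. Among lean mice, replicate 5 was the lowest for 6 of the 10 genes and had the highest macrophage mean (8.35 log2) of its group, while its adipocyte mean (11.13 log2) stood inside the range of the others. Leaving out any one of the 12 arrays left the same count of 6 genes called, and the part of cell make-up in these values was not tested.

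Beside these 10 genes the rest of the pathway was read from lists of genes with a shared role, in the same comparison. Of 12 further measured receptor-level genes and adaptors, 0 were called, with a median difference of -0.09 log2. Cbl (0.33 log2, adjusted p = 0.0607), Grb2 (0.31, adjusted p = 0.0815) and Sh2b2 (-0.34, adjusted p = 0.0973) came nearest and stayed under the 1.3-fold limit. Of 18 further PI 3-kinase, Akt and mTOR genes, 1 rose and 0 fell, with a median of 0.06 log2: Pik3cd, a catalytic subunit of blood cells, rose by 0.57 ± 0.11 log2 (adjusted p = 0.00759). Of 13 negative regulators, 1 rose and 0 fell, with a median of 0.09 log2: Ptprj, a receptor-type phosphatase, rose by 0.55 ± 0.08 log2 (adjusted p = 0.00223). The phosphatase Ptpn1 and the signalling inhibitor Socs3, textbook brakes on the receptor, were among the 12 that did not pass (0.07 and 0.09 log2).

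Of 19 measured genes that move GLUT4 vesicles, 0 rose and 1 fell, with a median of 0.04 log2. A single call in this list, as in the 2 lists before it, is near the 6.04% of all probe sets called. The one that fell was Sort1, a sorting receptor needed to build the vesicles, with 9.57 ± 0.24 log2 in obese mice and 10.05 ± 0.12 in lean mice (SD, n = 6 each). Its ranges were apart, and the difference was -0.48 ± 0.11 log2 (adjusted p = 0.0194). Tbc1d4, the Akt substrate that holds vesicles back, differed by -0.35 log2, under the 1.3-fold limit, and Trarg1, a vesicle protein of fat cells, by 0.01 log2. Of 9 other glucose transporters only Slc2a13, a proton myo-inositol transporter, was called, at -0.49 ± 0.12 log2 (adjusted p = 0.0373).

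The steps after glucose entry changed in both directions. Of 15 genes of glucose phosphorylation and glycogen metabolism, 3 rose and 4 fell, with a median of -0.10 log2. Those that fell were the glycogen phosphorylases Pygb (-0.82 ± 0.11 log2, adjusted p = 0.00125) and Pygl (-0.70 ± 0.15), the branching enzyme Gbe1 (-0.64 ± 0.14) and the muscle-type glycogen synthase Gys1 (-0.55 ± 0.13). Gys2, the liver-type glycogen synthase, lay between 6.84 and 7.44 log2 in obese mice and between 4.99 and 6.66 in lean mice. It rose by 1.13 ± 0.23 log2 (adjusted p = 0.0119), so the isoforms of glycogen synthase moved in opposite directions. Hk3, a hexokinase of white blood cells, rose by 0.93 ± 0.20 log2 and Pfkp by 0.41 ± 0.11 log2. Hk2, the insulin-regulated hexokinase of fat and muscle, differed by -0.47 log2 and was not called.

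FoxO factors and genes known as FoxO targets moved in both directions. Of 17 measured, 1 rose and 3 fell, with a median of -0.09 log2. Pdk4, which blocks entry of pyruvate into mitochondria, rose by 1.31 ± 0.25 log2 (adjusted p = 0.00774). Pck1, the enzyme of glyceroneogenesis in fat, which insulin represses, fell by 1.24 ± 0.14 log2 (adjusted p = 0.000506), with 10.04 to 10.88 log2 in obese mice and 11.51 to 11.85 in lean mice. Klf15 fell by 0.90 ± 0.18 log2 and Ppargc1a by 0.87 ± 0.24 log2.

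Of 10 genes of cAMP breakdown and lipolysis beside Pde3b, 1 fell and 0 rose, with a median of -0.15 log2: Lipe, the hormone-sensitive lipase that cAMP activates, fell by 0.41 ± 0.08 log2 (adjusted p = 0.0109). Of 14 regulators of Slc2a4 and lipogenic enzymes, 3 fell and 0 rose, with a median of -0.27 log2. These were Acaca, the fatty acid synthesis enzyme acetyl-CoA carboxylase (-1.14 ± 0.17 log2, adjusted p = 0.00209), Mlxipl, the glucose-sensing factor ChREBP (-0.55 ± 0.17, adjusted p = 0.092), and Srebf1, an insulin-induced lipogenic factor (-0.53 ± 0.11, adjusted p = 0.0161).

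**Figure D3:**
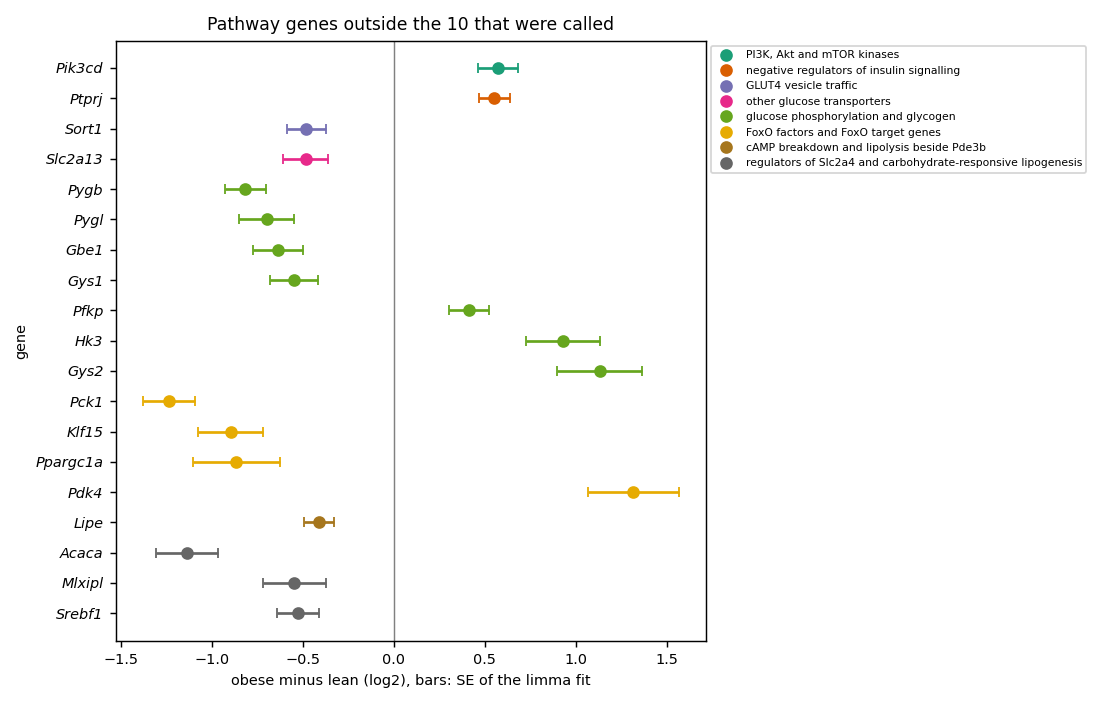
Difference obese minus lean (log2, horizontal axis, bars are the SE of the limma fit) for the pathway genes beside the 10 that were called, ordered and coloured by gene list. Pdk4 and Gys2 lie furthest to the right (1.31 and 1.13) and Pck1 and Acaca furthest to the left (-1.24 and -1.14).

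The second question was whether the pathway came back after the switch to control diet. In formerly obese against obese mice 4 of the 10 genes rose, Irs1, Pik3r1, Pde3b and Slc2a4, and none fell. Among all probe sets 5.19% were called and 2.02% were called higher. The median difference of the 10 genes was 0.35 log2, against 0.01 over all genes.

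Slc2a4 had 7.57, 7.86 and 8.18 log2 (lowest, median, highest) in formerly obese mice, against 6.60, 6.93 and 7.69 in obese mice. Of the 6 formerly obese mice 5 lay above all obese mice. The rise was 0.88 ± 0.18 log2 (adjusted p = 0.0157), or 1.84-fold. Irs1 had 7.08, 7.49 and 8.07 log2 in formerly obese mice, against 6.61, 6.84 and 7.16 in obese mice, and rose by 0.71 ± 0.16 log2 (adjusted p = 0.0222).

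Pik3r1 was the only one of the 10 with its ranges apart in this pair, 9.71 to 10.22 log2 in formerly obese mice against 9.26 to 9.69 in obese mice, where 1.44% of all probe sets were higher with ranges apart. It rose by 0.49 ± 0.10 log2 (adjusted p = 0.0162). Pde3b rose by 0.49 ± 0.13 log2 (adjusted p = 0.0508), with 9.86 to 10.43 log2 in formerly obese mice against 9.34 to 10.01 in obese mice. That call was near the limit: without formerly obese replicate 1, 3 or 4, or without obese replicate 3 or 6, its adjusted p lay between 0.104 and 0.111, and with the hepatocyte marker mean as a covariate the difference was 0.39 log2 (adjusted p = 0.136).

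Insr and Irs2 were higher in all 6 formerly obese mice than the obese mean, but did not pass. Insr differed by 0.28 ± 0.09 log2 and Irs2 by 0.42 ± 0.14 log2 (adjusted p = 0.119 for both). Without formerly obese replicate 5 or 6, Irs2 was called (adjusted p = 0.0673 and 0.0522). Grb14 differed by -0.29 log2 (adjusted p = 0.213), and Akt2, Foxo1 and Slc2a1 by at most 0.09 log2 either way. The macrophage mean lay between 8.31 and 9.45 log2 in formerly obese mice and between 9.01 and 9.97 in obese mice, and 6 of the 10 markers fell. With that mean as a covariate 0 of the 10 genes were called, the fitted differences being 0.63 log2 for Irs1 (adjusted p = 0.424), 0.38 for Slc2a4 (0.592), 0.29 for Pik3r1 (0.535) and 0.15 for Pde3b (0.846). All 8 mesothelial markers were higher in formerly obese mice and 5 rose, the mean lying between 7.02 and 7.60 log2 in formerly obese mice and between 6.03 and 7.01 in obese mice. Of 7 preadipocyte and fibroblast markers 1 rose and 2 fell. The part of these cells in the differences was not tested.

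Compared with lean mice, formerly obese mice had none of the 10 genes called, as was the case for all 41345 probe sets in limma (0% called, and 6.92% with an unadjusted p under 0.05). The study named a few genes at these limits in this pair, none of them among the 10. A fit on 1-symbol probe sets called 4 probe sets and one with a mean-variance trend 5, with 0 of the 10 genes in either. A looser rule kept the fold and level limits and asked only for an unadjusted p under 0.01, which 0.98% of all probe sets and 0 of the 10 genes met. None of the 10 genes had an unadjusted p under 0.05. The nearest was Insr, with 8.71, 8.89 and 9.10 log2 in formerly obese mice, against 8.91, 9.09 and 9.27 in lean mice. Of the 6 formerly obese mice 3 lay below all lean mice, and the difference was -0.19 log2 (95% confidence interval -0.40 to 0.01, adjusted p = 0.748). Slc2a4 differed by -0.15 log2 (95% confidence interval -0.42 to 0.13), Irs2 by -0.16 (-0.47 to 0.15) and Irs1 by 0.03 (-0.38 to 0.43). These intervals leave room for differences past 1.3-fold in Insr, Irs1, Irs2, Pde3b and Slc2a4, so the test does not show that the levels were alike. In formerly obese mice 7 of 8 mature adipocyte markers were lower, and all 10 macrophage and all 8 lymphocyte markers were higher, none of them called. Scaled to the adipocyte marker mean, the difference of Insr was -0.003 log2. The part of cell make-up in these values was not tested.

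**Figure D4:**
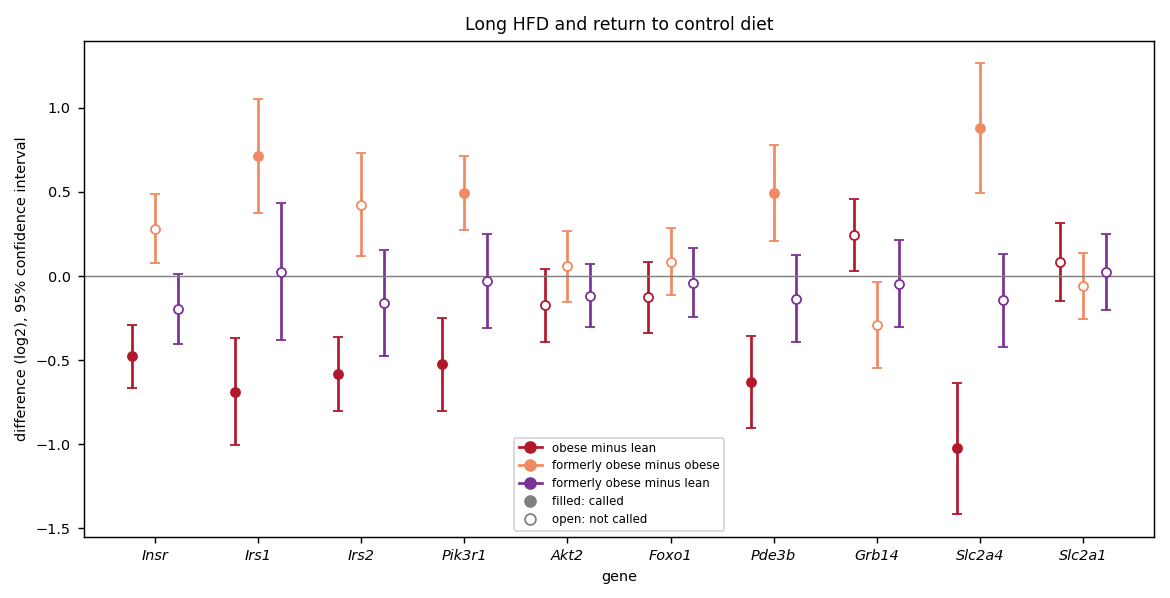
Difference (log2, vertical axis) with its 95% confidence interval for each of the 10 genes (horizontal axis) in 3 comparisons, filled where called. Slc2a4 stands at -1.02 in obese minus lean, at 0.88 in formerly obese minus obese and at -0.15 in formerly obese minus lean, comparisons that share their groups in pairs.

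Beside the 10 genes, the pathway lists were read in formerly obese against obese mice, where 5.19% of all probe sets were called. Of 15 genes of glucose phosphorylation and glycogen 3 rose and 2 fell, of 17 FoxO factors and targets 4 rose and 1 fell, and of 14 regulators and lipogenic enzymes 2 rose. Of 12 receptor-level genes, 19 vesicle genes and 10 genes of cAMP breakdown and lipolysis 1 each rose, of 13 negative regulators 1 fell, and of 18 kinase genes and 9 other transporters 0 were called. Genes that had fallen in obese mice and rose here were Pck1 by 1.04 ± 0.17 log2, Klf15 by 0.82 ± 0.17, Acaca by 1.10 ± 0.18, Ppargc1a by 0.82 ± 0.22, Pygl by 0.63 ± 0.15 and Pygb by 0.49 ± 0.12. Of the others that had fallen, Sort1 differed by 0.35 log2 (adjusted p = 0.0915, under the 1.3-fold limit), Mlxipl by 0.45, Gbe1 by 0.39, Srebf1 by 0.38, Gys1 by 0.30, Slc2a13 by 0.28 and Lipe by 0.22 log2, and none was called. Gys2 fell by 1.66 ± 0.20 log2 (adjusted p = 0.0012), with 4.77 to 6.10 log2 in formerly obese mice against 6.84 to 7.44 in obese mice. Ptprj and Pdk4 fell by 0.39 ± 0.09 and 0.90 ± 0.21 log2. Igf1r, the receptor nearest to the insulin receptor, rose by 0.50 ± 0.14 log2 (adjusted p = 0.0593), and Tbc1d4 by 0.40 ± 0.11 log2 (adjusted p = 0.0557). These contrasts share the obese arrays with the comparison of obese and lean mice.

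The third question was what 48 h of HFD did. In lean-HFD against lean mice 0 of the 10 genes were called, with 0.00242% of all probe sets called, and none had an unadjusted p under 0.05, which 5.9% of all probe sets had and 0.641% passed the looser rule. Slc2a4 came nearest. It had 7.50, 7.79 and 8.06 log2 in lean-HFD mice, against 7.80, 7.95 and 8.42 in lean mice, and 3 of the 6 lean-HFD mice lay below all lean mice. The difference was -0.25 log2 (95% confidence interval -0.53 to 0.03, adjusted p = 0.855). The other 9 genes had means between 0.03 and 0.15 log2 higher in lean-HFD mice, Irs2 the highest at 0.15.

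In formerly obese-HFD against formerly obese mice 0 of the 10 genes were called, as for all probe sets (0% called, 5.34% with an unadjusted p under 0.05, 0.612% by the looser rule). Slc2a4 in formerly obese-HFD mice stood at 7.13, 7.22 and 7.23 log2 in 3 mice and at 7.91, 7.97 and 8.02 log2 in the other 3, against 7.57 to 8.18 in formerly obese mice. The first 3 lay below all formerly obese mice and the rest inside their range. The adipocyte marker mean divided these mice alike, from 10.69 to 10.82 log2 in the 3 low mice and from 10.96 to 11.27 in the other 3, and its part in the split was not tested. The difference was -0.30 log2 (95% confidence interval -0.69 to 0.09). Pik3r1 and Slc2a1 were higher by 0.27 and 0.26 log2, Pik3r1 with all 6 formerly obese-HFD mice above the formerly obese mean.

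Whether the response to 48 h of HFD depended on history was tested as an interaction over 24 arrays. None of the 10 genes was called, as for all probe sets (0% called, 4.61% with an unadjusted p under 0.05, 0.578% by the looser rule). The widest interaction was that of Irs2, whose response was lower by 0.37 log2 in mice with an obese history (95% confidence interval -0.82 to 0.08, unadjusted p = 0.106).

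Mice that ate HFD for 48 h were then compared by history. In formerly obese-HFD against lean-HFD mice 0 of the 10 genes were called by the main rule (0% of all probe sets, 8.27% with an unadjusted p under 0.05), and 1, Irs2, passed the looser rule, which 1.5% of all probe sets passed and 0.588% passed with a lower value. Irs2 had 6.56, 6.87 and 7.13 log2 in formerly obese-HFD mice, against 6.84, 7.44 and 7.74 in lean-HFD mice. All 6 formerly obese-HFD mice lay below the lean-HFD mean and 3 below every lean-HFD mouse. The difference was -0.53 ± 0.16 log2 (unadjusted p = 0.00491, adjusted p = 0.472), 1.44-fold lower in formerly obese-HFD mice.

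Irs2 is also a gene of hepatocytes, and the hepatocyte mean lay between 5.15 and 7.69 log2 in formerly obese-HFD mice and between 5.99 and 10.56 in lean-HFD mice. With that mean as a covariate the difference of Irs2 was -0.55 log2, and scaled to the adipocyte marker mean it was -0.29 log2. All 8 mature adipocyte markers were lower and all 10 macrophage markers higher in formerly obese-HFD mice, none of them called. The part of these cells and of hepatocyte RNA in the difference was not tested. Grb14 was lower in formerly obese-HFD mice by 0.27 log2 (unadjusted p = 0.0391), and the other 8 genes had an unadjusted p over 0.05. Pathway genes that passed the looser rule there were Hk2 (-0.45 log2), Pik3r3 (-0.40), Pygb (-0.39) and Pdk4 (0.62), each with an adjusted p of 0.472.

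**Figure D5:**
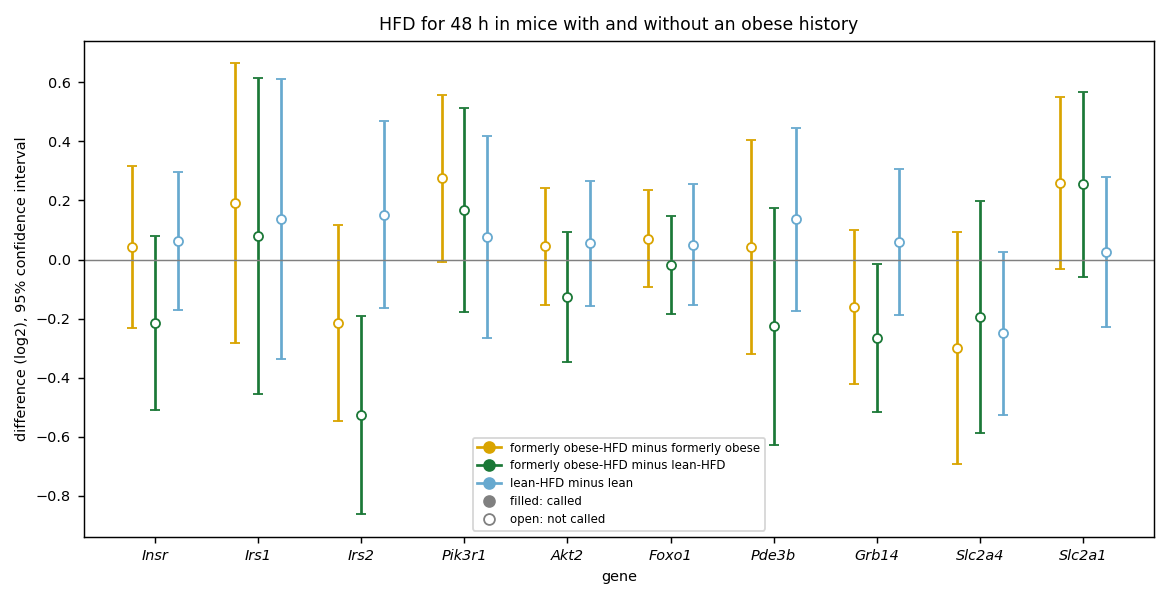
Difference (log2, vertical axis) with its 95% confidence interval for each of the 10 genes (horizontal axis) in 3 comparisons that involve 48 h of HFD. No point is filled, as 0 genes were called, and Irs2 in formerly obese-HFD minus lean-HFD stands at -0.53.

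Long and short HFD feeding were set against each other in obese and lean-HFD mice, which were both eating HFD when sampled. The 6 genes that fell in obese mice against lean mice also fell against lean-HFD mice, where 7.79% of all probe sets were called and 3.16% were called lower. Both comparisons use the same obese arrays, so the second is not a separate repeat of the first. Irs2 lay between 6.37 and 6.82 log2 in obese mice and between 6.84 and 7.74 in lean-HFD mice, and Pik3r1 between 9.26 and 9.69 log2 in obese mice and between 9.73 and 10.60 in lean-HFD mice. Both had their ranges apart, where 1.82% of all probe sets were lower with ranges apart. The falls were -0.83 ± 0.19 log2 for Irs1, -0.77 ± 0.18 for Slc2a4, -0.76 ± 0.15 for Pde3b, -0.73 ± 0.14 for Irs2, -0.60 ± 0.14 for Pik3r1 and -0.54 ± 0.11 for Insr, with adjusted p from 0.0076 to 0.021. All 10 hepatocyte markers were called lower in obese mice in this pair, and with their mean as a covariate 0 of the 10 genes were called (adjusted p from 0.104 for Irs1 to 0.476 for Slc2a4). The fitted differences were wider than without it for Irs1 (-1.23 log2), Pde3b (-0.91), Pik3r1 (-0.81) and Insr (-0.58), and narrower for Irs2 (-0.67) and Slc2a4 (-0.58). All 8 mesothelial markers were lower in obese mice in this pair and 5 fell.

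Among mice of the same group the 10 genes varied together to different degrees. After subtracting each group's mean, Akt2 followed Slc2a4 most closely over the 30 arrays (Pearson r = 0.773), then Pde3b (r = 0.727), Pik3r1 (r = 0.599), Irs1 (r = 0.572) and Insr (r = 0.538). The values of Grb14 (r = -0.0408) and Slc2a1 (r = -0.318) were below 0. The genes most like Slc2a4 among 16290 were Gsta3 (r = 0.877), Gbe1 (r = 0.862), Kyat3 (r = 0.857), Pcx (r = 0.855) and Ginm1 (r = 0.854). These values describe arrays that share their tissue make-up, which varied between mice of a group.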

How the data were processed

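Total RNA of gWAT from 30 mice was measured by the authors with 1-colour arrays (Affymetrix Mouse Gene 2.0 ST), 1 per mouse. The table they deposited holds log2 values for each probe set, from RMA in Affymetrix Expression Console 1.4.1.46 per the labels. RMA corrects background, quantile-normalizes the arrays together and summarises probes, which can shrink a shift shared by most genes. These log2 values were used as deposited. The number of arrays and not a read depth limits the precision.

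Tests were two-sided and used limma 3.58.1 under R 4.3.3, with lmFit and eBayes, on the 12 arrays of the groups compared, or on 24 for the interaction. P values were adjusted by Benjamini-Hochberg over all 41345 probe sets. Calls needed an adjusted p under 0.10, a fold over 1.3 and a level over 16 in at least 1 group, thresholds taken from the study's methods. The looser rule replaced the adjusted p by an unadjusted p under 0.01. Errors of differences are SEs and errors of means are SDs. Mice are taken as separate animals, and each p value sets a group difference against the spread between them, as moderated by eBayes.

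The 10 genes, the pathway lists and the marker lists were chosen with earlier results of these data known. Named genes were the 10, list genes that were called or had the smallest p, and the 5 genes most correlated with Slc2a4. A few others were named after their values were seen. A gene's probe set was the 1-symbol one with the highest mean. The test was checked on simulated data. Figures used matplotlib 3.10.9 in Python 3.11.15. RefSeq windows for Insr, Slc2a4 and Pde3b and protein sequences were not used here. Alternatives were all arrays in 1 fit, other filters, scalings, probe sets and covariates, the replicate number as a block, and leaving out each array.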

Additional observations from a re-analysis of the deposited data

Results flagged for a closer look

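Foxo1 had 1 low array in each of 2 groups, by a gap test for a single extreme value in groups of 6. The formerly obese mouse of replicate 5 had 8.41 log2, against 8.66 for the next lowest, a gap of 0.651 of the group's range. The lean mouse of replicate 2 had 8.41 log2 (8.405), against 8.74 for the next lowest, a gap of 0.766 of the range. Both gaps are past the 95% limit for 6 arrays. In all 50 gene and group pairs were tested, and chance flags about 1 in 20.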

How the results depend on the processing

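The 16 calls on the 10 genes (6 in obese against lean, 4 in formerly obese against obese and 6 in obese against lean-HFD mice) were refitted in 179 alternatives, of which 148 kept direction and call, 27 kept only the direction and 4 turned it. In 192 fits with 1 array left out, 187 kept direction and call and 5, all of Pde3b in formerly obese against obese mice, kept only the direction. Over those fits the genes called numbered 6 to 6, 3 to 5 and 6 to 6 in the 3 comparisons, and 0 to 0 in the others.

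Scaled to the adipocyte marker mean, 3 genes were called in obese against lean mice (1 higher, 2 lower), and probe sets called numbered 7621 (96.4% higher) against 2496 as deposited (65% higher). Obese against lean-HFD mice gave 9299 (95.1% higher) against 3222 (59.5% higher), and formerly obese against obese mice 22% higher against 38.9% higher. The hepatocyte marker mean as a covariate left 0 genes called in obese against lean-HFD mice and 1156 probe sets, with fitted differences of the 6 genes from -1.23 to -0.58 log2, against -0.83 to -0.54 without it. The macrophage marker mean as a covariate, an alternative chosen after seeing the data, left 0 genes in all 3 comparisons, and 0, 102 and 0 probe sets. It gave 0.10 log2 for Pik3r1, 0.11 for Pde3b and 0.18 for Slc2a4 in obese against lean mice, and 0.33 for Slc2a4 in obese against lean-HFD mice. Macrophage means of obese mice overlap neither those of lean nor those of lean-HFD mice, so in these pairs that term and group cannot be told apart.

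The looser rule called 1 gene, Irs2, in formerly obese-HFD against lean-HFD mice. It called 405 probe sets in formerly obese against lean, 265 in lean-HFD against lean, 253 in formerly obese-HFD against formerly obese and 622 in formerly obese-HFD against lean-HFD mice, where the main rule called 0, 1, 0 and 0. Scaling to adipocyte markers gave 43 probe sets (95.3% higher) in formerly obese against lean mice, and all 30 arrays in 1 fit gave 47 in formerly obese-HFD against lean-HFD mice, with 0 of the 10 genes in either. The replicate numbers of the labels pair no animals, and correlations of same-numbered arrays ran from -0.259 to 0.469. With the number as a replicate block, 5 genes were called in obese against lean mice (Pik3r1 lost, adjusted p = 0.119) and 5 in formerly obese against obese mice (Irs2 gained, adjusted p = 0.0731), and no other call on the 10 genes changed. The number of arrays, 6 a group, limits the precision.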

Other observations

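Acly, Fasn, Elovl6 and Me1, lipogenic enzymes that act on the carbon of glucose, were lower after 48 h of HFD at both histories. None passed the adjusted test. Of 14 regulators of Slc2a4 and lipogenic enzymes, 6 were higher and 8 lower in lean-HFD against lean mice (median -0.05 log2). In formerly obese-HFD against formerly obese mice 3 were higher and 11 lower (median -0.145 log2). In each pair 4 of the 14 passed the looser rule, all lower, against 0.641% and 0.612% of all probe sets. Acly, which makes cytosolic acetyl-CoA from citrate, averaged 8.58 log2 in formerly obese-HFD mice and 9.86 in formerly obese mice, a difference of -1.28 ± 0.17 log2 (limma, unadjusted p = 6.05e-06, adjusted p = 0.25). It averaged 8.57 log2 in lean-HFD mice and 9.72 in lean mice, a difference of -1.15 ± 0.27 log2 (adjusted p = 0.786). Fasn, the fatty acid synthase, differed by -1.12 ± 0.27 log2 in formerly obese-HFD against formerly obese mice and by -1.14 ± 0.23 log2 in lean-HFD against lean mice. Elovl6 (-1.55 and -1.27 log2) and Me1 (-0.69 and -0.72 log2) passed the looser rule in the same pairs.

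The same enzymes were then read in obese against lean-HFD mice. Having been named for low values on the lean-HFD arrays, which this pair shares, they were favoured to be higher in obese mice. Of the 14 genes of that list 4 rose and 2 fell, with a median of 0.05 log2, where 7.79% of all probe sets were called. In obese against lean-HFD mice Elovl6 rose by 1.35 ± 0.23 log2 (adjusted p = 0.00326), Me1 by 0.90 ± 0.18 (adjusted p = 0.00993), Fasn by 0.89 ± 0.21 (adjusted p = 0.0215) and Acly by 0.73 ± 0.20 (adjusted p = 0.0392), while Mlxipl and Srebf1, the factors that drive them, fell by 0.84 ± 0.16 and 0.60 ± 0.12 log2. Slc2a4 and the adaptors fell in that same pair. Hepatocyte markers were higher on the lean-HFD arrays, and their part in these values was not tested.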
